A study of Mus musculus with 3 samples.

Results

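The cytosolic ribosomal protein genes encode the proteins that, with ribosomal RNA, make up the small and large subunits of the ribosome of the cytoplasm. They were chosen by symbol, as Rpl or Rps followed by a digit plus Rplp0, Rplp1, Rplp2 and Rpsa, leaving out the Rps6k kinases, pseudogenes and non-coding genes. The rule gave 89 genes, of which 87 had a probe and 85 were measured, of 13162 genes measured in all. The 85 comprise 31 small subunit genes, 45 large subunit genes including the 3 of the stalk, and 9 paralogs or relatives that are described apart. The RNA came from CD4+ T cells of female C57BL/6 mice, 8 weeks old, collected 2 days after stimulation, and was read on 1-colour oligonucleotide arrays. There was 1 array for each of 3 genotypes, given as Rbpj-/- (Rbpj KO), Dll1-/- (Dll1 KO) and wild type (WT). Dll1 sits in the membrane of a signalling cell and activates Notch receptors on its neighbours, and Rbpj carries the cleaved receptor to its target genes. The sources used here do not give which cells carry each deletion, what the stimulus was or how many mice gave each sample.

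A T cell that has been activated grows and then divides quickly, and making ribosomes is among the costliest steps of that growth. Most ribosomal proteins are needed in equal numbers. Ribosomal proteins are imported into the nucleolus and are assembled there on ribosomal RNA with the help of assembly factors. Their mRNAs are very abundant and typically start with a cytosine followed by a run of pyrimidines, the terminal oligopyrimidine (TOP) motif, through which growth signalling by mTOR controls their translation. Free ribosomal proteins, above all Rpl5 and Rpl11, can bind Mdm2 and thereby stabilise p53.

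TOP control acts on the first bases of the mRNA. The sequence around the annotated start is shown for some of the members with the largest differences described below. It is also shown for the stalk gene Rplp2, and for Rpl5 and Rpl11. Promoters came from RefSeq (GRCm38.p6), which had an entry for 65 of the 85 measured members. Each line holds 15 bases before and 15 bases from the annotated start, written 5′ to 3′ on the transcript's strand, and capitals mark a cytosine followed by at least 5 pyrimidines.
Rps2 (chr17:24720048-24720077, plus strand): aggcagtcgagatctcgcgCTTCTTggagc
Rps18 (chr17:33955651-33955680, minus strand): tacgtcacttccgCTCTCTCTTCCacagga
Rps19 (chr7:24884898-24884927, plus strand): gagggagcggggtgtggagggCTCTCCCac
Rpl18 (chr7:45718056-45718085, plus strand): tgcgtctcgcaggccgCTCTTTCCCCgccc
Rpl7a (chr2:26910792-26910821, plus strand): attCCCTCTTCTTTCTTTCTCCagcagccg
Rpl35a (chr16:33056467-33056496, plus strand): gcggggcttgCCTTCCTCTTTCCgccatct
Rplp2 (chr7:141447636-141447665, plus strand): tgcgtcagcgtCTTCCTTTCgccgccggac
Rpl22l1 (chr3:28805493-28805522, plus strand): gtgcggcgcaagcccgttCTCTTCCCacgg
Rpl5 (chr5:107900513-107900542, plus strand): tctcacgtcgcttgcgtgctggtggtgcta
Rpl11 (chr4:136053379-136053408, minus strand): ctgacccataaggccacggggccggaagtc
In the lines shown no run begins exactly at the annotated start, and where transcription starts was not measured here. The capitals thus mark letters and not a TOP motif. Rpl5 and Rpl11 have no such run in this window, which does not show that they lack the motif. Other members among the largest differences are not shown. Of these, Rpl7l1, Rps19bp1 and Rpl37a have no run, while Rps15a, Rpl39, Rpl39l, Rpl4 and Rps23rg1 have one. Rps19 and Rpl35a each have 3 annotated starts, and the window shown is the one that holds a run, while their other windows hold none. Among the 56 core subunit genes with a promoter entry, 43 (76.8%) had the run on the transcript's strand within 30 bases of any annotated start, against 43.9% of all 17492 genes with an entry. On the opposite strand the run was found in 20 of the 56 (35.7%), against 48.4% of all genes.

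Promoter motifs were also searched on both strands in the 300 bases around each start. The letters TGGGAA, the core of the site that Rbpj binds, were in 13 of 56 core promoters (23.2%), against 27.4% of all promoters. CCGGAAG, an ETS-type site, was in 23 of 56 (41.1%), against 12.9% of all. A palindromic CGCG element of 10 letters, spelled by the capitals of the Rpl26 line below, was in 6 of 56, against 0.755% of all. The E-box CACGTG, which Myc can bind, was also in 6 of 56, against 8.91% of all. Stretches of 4 promoters with the Rbpj letters, 1 with the ETS letters and 1 with the palindrome are shown with the motif in capitals, as written or as its reverse complement.
Rpl22l1 (chr3:28805284-28805369, plus strand): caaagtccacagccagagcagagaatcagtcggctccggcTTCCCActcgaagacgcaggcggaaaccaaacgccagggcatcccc
Rpl39 (chrX:37085257-37085342, minus strand): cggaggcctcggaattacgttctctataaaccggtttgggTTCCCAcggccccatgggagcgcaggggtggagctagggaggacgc
Rps15a (chr7:118116148-118116233, minus strand): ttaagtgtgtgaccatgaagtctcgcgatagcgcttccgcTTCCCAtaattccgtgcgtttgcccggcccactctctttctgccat
Rpl7l1 (chr17:46782792-46782877, minus strand): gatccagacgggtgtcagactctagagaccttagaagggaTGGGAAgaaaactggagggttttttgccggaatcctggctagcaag
Rps18 (chr17:33955694-33955780, minus strand): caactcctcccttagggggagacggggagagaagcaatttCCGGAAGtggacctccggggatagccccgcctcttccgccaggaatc
Rpl26 (chr11:68901500-68901565, plus strand): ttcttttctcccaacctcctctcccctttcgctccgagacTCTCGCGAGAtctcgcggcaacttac
In Rbpj KO cells against WT cells the median log2 difference was -0.07 for core genes with TGGGAA and -0.09 for those without. In Dll1 KO cells against WT cells it was -0.15 with and -0.16 without. For the ETS letters the medians were -0.08 with and -0.10 without in Rbpj KO cells, and -0.19 with and -0.15 without in Dll1 KO cells. For the palindrome, with 6 genes, they were -0.09 with and -0.09 without in Rbpj KO cells, and -0.20 with and -0.15 without in Dll1 KO cells. For the E-box, also with 6 genes, they were -0.15 with and -0.08 without in Rbpj KO cells, and -0.24 with and -0.15 without in Dll1 KO cells. None of these differences was tested. A match is a description of the letters and not a binding site.

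Level here is the log2 processed signal of a gene's probes minus the array's 75th percentile, so 0 marks that percentile and 1 unit is a doubling. Probes differ in how well they bind, so levels compare arrays and not genes. The 75th percentile lay at 7.14 (log2 signal) on the Rbpj KO array, 7.28 on the Dll1 KO array and 7.47 on the WT array, and 47.3%, 50.1% and 46.6% of probes were well above background in that order. All 3 arrays shared 1 slide and 1 scan time. With 1 array a group there is no replicate check and no p-value. The genes of an array are not replicates of its genotype, so each set is described by its median and counts beside those of all genes. Rbpj itself read 0.53 in Rbpj KO cells, 1.32 in Dll1 KO cells and 1.04 in WT cells, a log2 difference of -0.50 between Rbpj KO and WT, so its signal was reduced but present in the library labelled Rbpj KO. Dll1 did not stand clear of background on the 3 arrays, so its probes do not check the Dll1 KO label. All 8 T cell markers were measured on every array, and Cd4 read 2.31, 1.89 and 1.93 in Rbpj KO, Dll1 KO and WT cells. The 8 had a summed scaled signal of 899 in Rbpj KO cells, 806 in Dll1 KO cells and 820 in WT cells. Sums over the markers measured on at least 1 array were, in Rbpj KO, Dll1 KO and WT cells, 0.798, 1.21 and 1.23 for both CD8 T cell markers, 17.7, 23.1 and 24.2 for 6 B cell markers, and 5.32, 12.6 and 13.7 for 3 of 5 NK cell markers. Of 6 monocyte and macrophage markers 3 were measured, with sums of 6.70, 5.57 and 6.01. Neutrophil markers summed to 3.48, 2.02 and 2.67, and stroma markers to 0.874, 0.549 and 0.856. Among 5 dendritic cell markers Siglech alone was measured, and it read, on 1 of its 2 probes, 9.26, 9.22 and 9.07. None of 6 erythroid markers was well above background, and neither were Cd14, Adgre1, Flt3, Itgax and Ncr1. The part of these cells in the differences below was not tested.

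Ribosomal protein gene probes gave bright signals on every array, which ranks signals and not amounts of mRNA. The members' median level was 8.03 in Rbpj KO cells, 8.12 in Dll1 KO cells and 8.24 in WT cells, and 79 of the 85 lay at or above the level that bounds the 1000 brightest other genes. Core subunit genes ran between 1.89 and 10.80 in Rbpj KO cells, between 1.95 and 10.68 in Dll1 KO cells and between 1.96 and 10.68 in WT cells. The 1000 brightest other genes serve below as a second background, added after the data were seen. This set reaches down to a mean level of 4.59 and holds many genes dimmer than most members, so it is not matched on signal, and values by level are given apart.

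In Dll1 KO cells nearly all ribosomal protein genes read slightly lower than in WT cells. The median log2 difference was -0.14, with the middle of the distribution between -0.21 and -0.07, and 78 of 85 genes were below 0, where 55.7% of all measured genes were. The median over all genes was -0.03. Among the 1000 brightest other genes it was -0.06, and 65% of them were below 0. The shift was broad and shallow: 3 of 85 genes were lower by a step of 25%, meaning that the WT signal exceeded that of the knockout by at least 25%, where 8.57% of all genes and 4% of the brightest others were. 1 gene was at least 25% higher, where 7.8% of all genes and 6.3% of the brightest others were. Fewer T cells and less RNA per T cell cannot be told apart in these bulk samples.

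Against WT cells, the median in Rbpj KO cells was -0.10 and 67 of 85 genes were below 0, where 60.2% of all genes were. The median of all genes was -0.07 and that of the 1000 brightest others was -0.17, with 77.7% of these below 0. Of the members, 3 were lower by the same step, against 18.7% of all genes and 21.1% of the brightest others, and 1 was at least 25% higher, against 12.4% of all genes and 3.9% of the brightest others. Relative to the median of the brightest others, that of the ribosomal protein genes stood at 0.07 in Rbpj KO cells and at -0.08 in Dll1 KO cells. Set against other genes above level 8, members of that level stood at -0.01 in Rbpj KO cells and at -0.19 in Dll1 KO cells. Cyclic loess put the Rbpj KO median above 0, at 0.06.

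**Figure D1:**
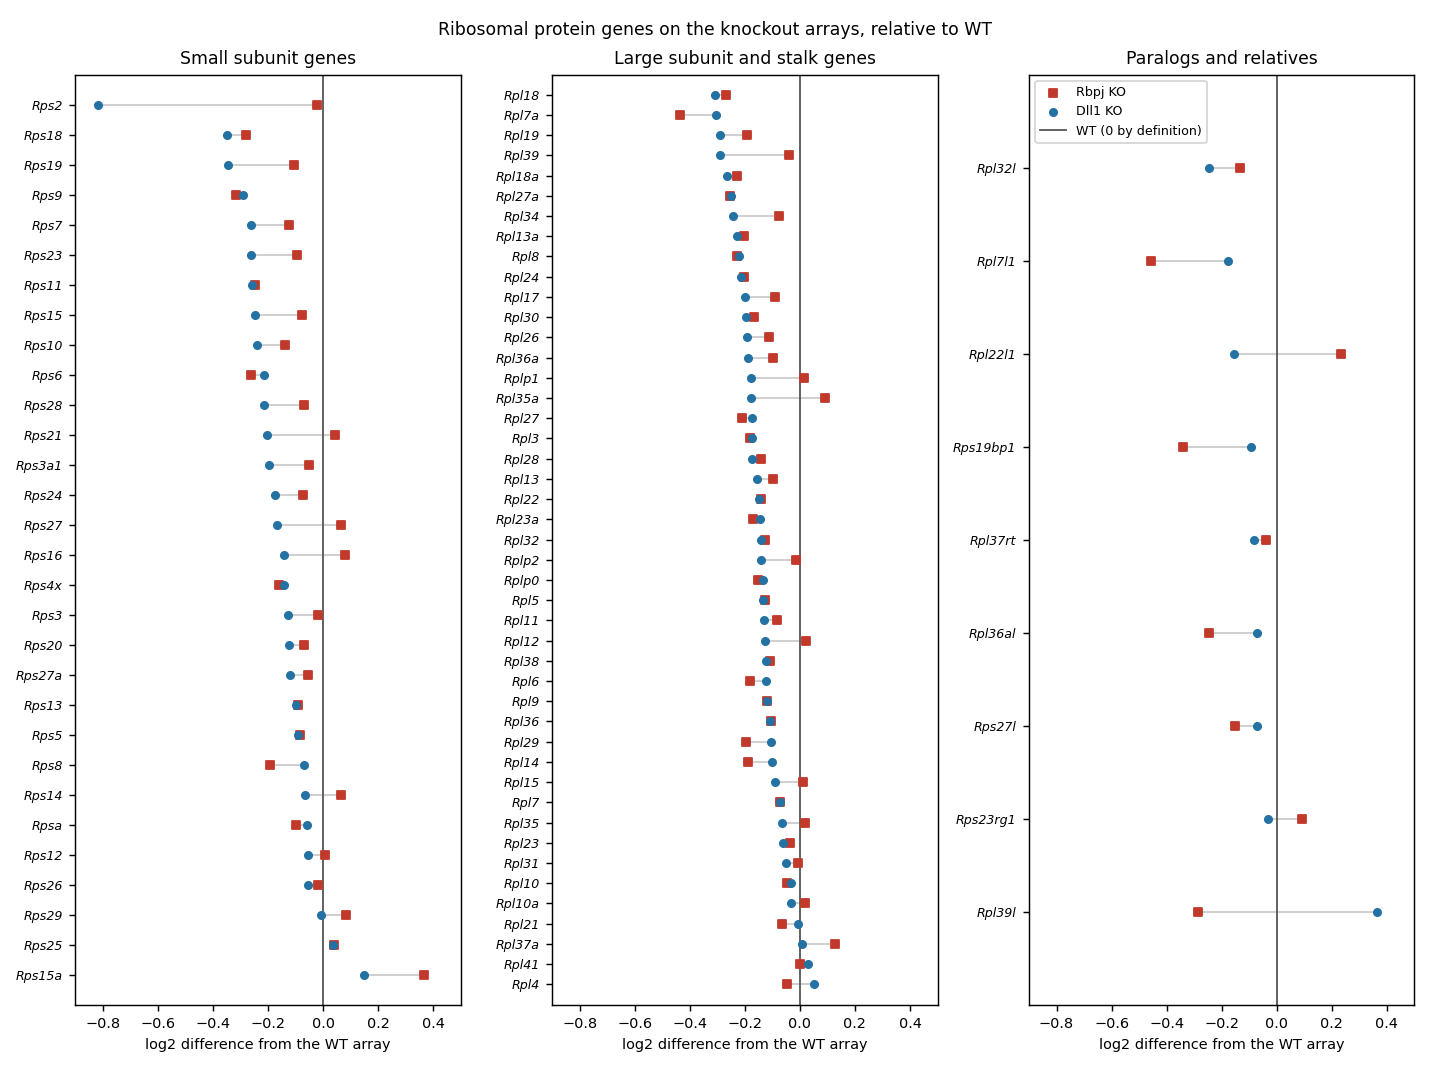
Log2 difference of each ribosomal protein gene from the WT array (horizontal axis, WT at 0) in Rbpj KO (squares) and Dll1 KO (circles), 1 array each, for small subunit genes (1 of them not drawn), large subunit and stalk genes, and paralogs or relatives. Most circles lie left of 0, Rps2 lies farthest left in Dll1 KO, and Rpl39l lies right of 0 in Dll1 KO and left of it in Rbpj KO.

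Between the knockouts, the direction depended on the scaling. With arrays set to their 75th percentile, ribosomal protein genes read slightly higher in Rbpj KO cells than in Dll1 KO cells, whereas with each array set to its median they read lower (median -0.09, 65 of 85 below 0), and with spike-in scaling lower still (-0.38, 84 of 85). Under these 2 scalings the medians of the 1000 brightest others were -0.21 and -0.51. At the 75th percentile the members' median was 0.04 and 58 of 85 members were above 0. Of all genes 44.9% were, and of the 1000 brightest others 31%. The median of all genes was -0.03 and that of the brightest others -0.09. By at least 25%, 2 members were lower and 2 higher in Rbpj KO cells, where 15.2% and 13% of all genes and 17.7% and 4.5% of the brightest others were. Taken over the 3 arrays, 55 of 85 members were lowest in Dll1 KO cells, 26 in Rbpj KO cells and 4 in WT cells. Of the 1000 brightest other genes, 24.1% were lowest in Dll1 KO cells, 65% in Rbpj KO cells and 10.9% in WT cells. Of all genes measured on the 3 arrays 28.5%, 47.4% and 24.1% were. This order depended on the scaling too. With each array set to its median, 19 of the 85 (22.4%) were lowest in Dll1 KO cells, against 12.4% of the brightest others. With spike-in scaling 1 member was (1.18%), against 3% of the brightest others. At the 75th percentile the highest reading of 17 members was in Rbpj KO cells, of 4 in Dll1 KO cells and of 64 in WT cells. The same shares were 18.3%, 28.1% and 53.6% of the brightest others and 31.4%, 28.8% and 39.8% of all genes. The comparisons with WT share the WT array, so a low or high WT reading enters both.

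**Figure D2:**
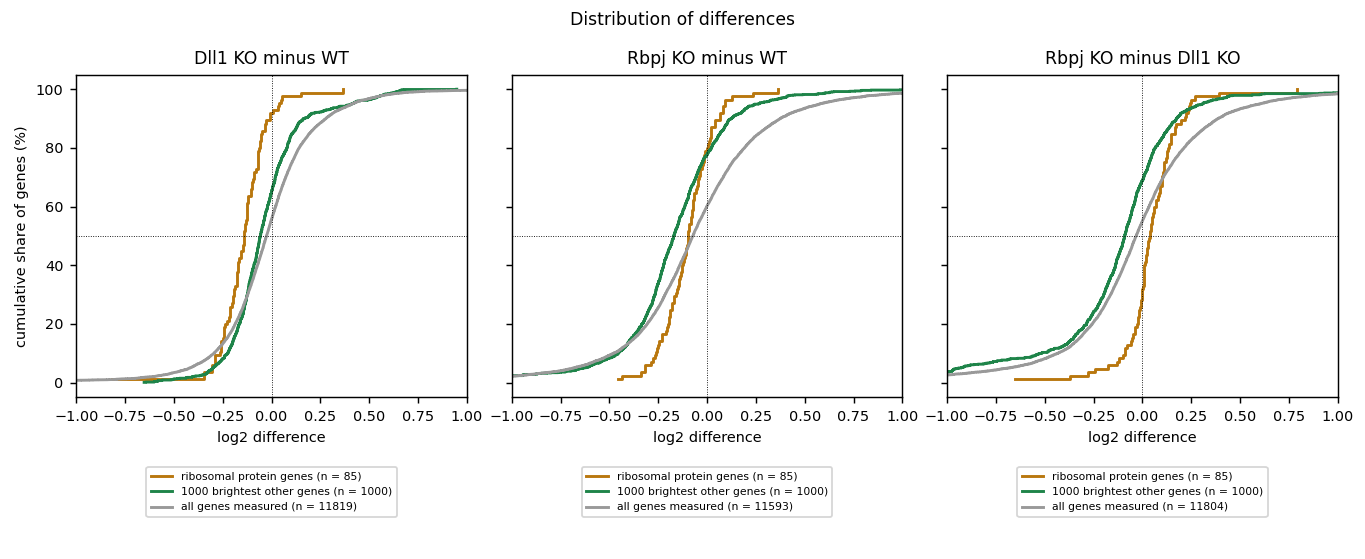
Cumulative share of genes (vertical axis, %) by log2 difference (horizontal axis, shown from -1 to 1) for the 85 ribosomal protein genes, the 1000 brightest other genes and all genes measured on both arrays. Over most of its range the curve of the ribosomal protein genes lies left of both others in Dll1 KO minus WT (median -0.14) and right of both in Rbpj KO minus Dll1 KO (median 0.04).

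Signal level did not order the members' differences in Dll1 KO cells against WT cells, but did in the other comparisons. In Dll1 KO cells against WT cells the 28 brightest members had a median of -0.12, the 28 in the middle -0.18 and the 29 dimmest -0.13. In Rbpj KO cells against WT cells the same groups gave -0.05, -0.13 and -0.14. For Rbpj KO minus Dll1 KO these groups gave 0.06, 0.04 and 0.01. Between levels 6 and 8 the median of 29 members was -0.19 in Dll1 KO cells against WT cells, where 266 other genes had -0.07. All 29 were below 0, as were 55.7% of all genes and 65% of the brightest others. That share was not taken for other genes of the same level. A gene's level averages probes that can be far apart, such as those of Rpl6, from -1.60 to 9.36 in WT cells. Groups by level are thus not strictly matched on signal. Above level 8 the median of 44 members was -0.13, and that of 66 other genes was 0.06. In Rbpj KO cells against WT cells the 44 members above level 8 had a median of -0.08 and the other 66 genes -0.07.

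**Figure D3:**
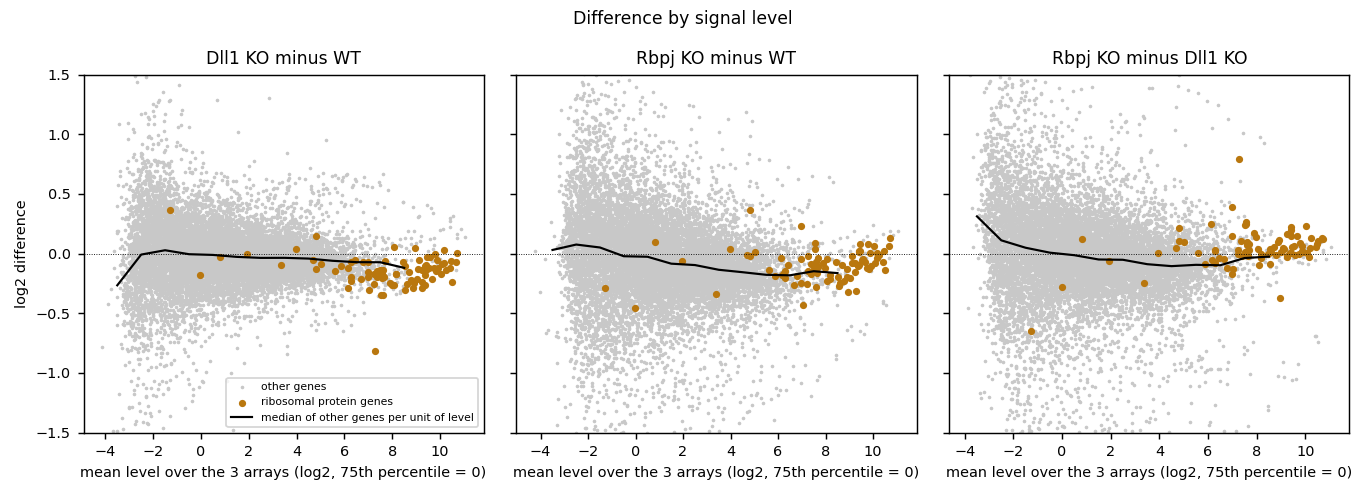
Log2 difference (vertical axis, shown from -1.5 to 1.5, with genes beyond it not drawn) against the mean level over the 3 arrays (horizontal axis, log2, 0 at the 75th percentile) for ribosomal protein genes and all other genes. The line is the median of the other genes in each unit of level that holds enough genes. In Dll1 KO minus WT most members between levels 6 and 8 lie below that line.

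Single probes carry a scanner error that is larger than these medians. The scanner's own estimate for a difference between 2 spots had a median of 0.20 log2, and 48 of 169 member probes (28.4%) lay beyond their error in Dll1 KO against WT, with 24.3% in Rbpj KO against WT and 15.4% between the knockouts. For the 1000 brightest other genes these shares were 22.4%, 50.3% and 36.4%. A probe of Rpl23, printed 10 times on each array, averaged 3.79 ± 0.04 in Rbpj KO cells, 3.84 ± 0.02 in Dll1 KO cells and 3.89 ± 0.06 in WT cells (SD over spots). Its spots overlapped between the arrays, running from 3.73 to 3.86 in Rbpj KO cells, from 3.81 to 3.86 in Dll1 KO cells and from 3.76 to 3.94 in WT cells. The direction was nevertheless shared by most probes. In Dll1 KO cells against WT cells 153 of 169 probes were below 0, with medians of -0.14 in the upper rows of the array (80 probes) and -0.16 in the lower rows (88 probes). Of the 51 genes with at least 2 probes, 42 had all probes below 0 in Dll1 KO cells, 0 had all above and 9 were mixed. Of the same genes, 29 in Rbpj KO cells had all probes below 0, 7 all above and 15 mixed. Such counts were not made for probes of other genes, and all probes of an array share its scaling. Counted by gene, 55.7% of all genes were below 0 in Dll1 KO cells and 60.2% in Rbpj KO cells.

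Small subunit genes build the part of the ribosome that binds the mRNA and reads its codons. In Dll1 KO cells against WT cells their median was -0.14 and 28 of 31 were below 0, as were 55.7% of all genes and 65% of the brightest others. In Rbpj KO cells against WT cells the small subunit median was -0.07 with 23 of 31 below 0 (74.2%). That share lay near the 77.7% of the brightest others, and 60.2% of all genes were below 0. Between the knockouts the median was 0.09 with 25 of 31 higher in Rbpj KO cells, as were 44.9% of all genes and 31% of the brightest others. Under 11 other settings the Dll1 KO median stayed below 0, while the Rbpj KO median turned above 0 in 2 (up to 0.09, cyclic loess) and the median between the knockouts turned below 0 in 2 (down to -0.33, spike-in scaling).

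Rps2, a protein near the mRNA entry channel, had the lowest difference of all members in Dll1 KO cells. Its level was 7.52 in Rbpj KO cells, 6.72 in Dll1 KO cells and 7.54 in WT cells, which makes it 1.76-fold lower in Dll1 KO cells than in WT cells (log2 difference -0.82). The Rbpj KO and WT readings were close and the Dll1 KO reading stood apart. The size differed between its 2 probes: 1 read 8.19, 6.64 and 7.80 in Rbpj KO, Dll1 KO and WT cells, and the other read 6.84, 6.80 and 7.28. Both were lower in Dll1 KO cells than in WT cells, by -1.15 and -0.48, but in Rbpj KO cells they pointed opposite ways, at 0.39 and -0.44. Rps2 was the sole member whose probes disagreed in sign by 25% each way, and its difference of 0.79 between the knockouts rests on the first probe, since the second gave 0.04.

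Rps18, a protein of the subunit's head, read 7.53 in Rbpj KO cells, 7.46 in Dll1 KO cells and 7.80 in WT cells. Both knockouts stood below WT, by -0.28 in Rbpj KO and -0.35 in Dll1 KO, and both of its probes were lower in each. Rps19, whose loss of function causes Diamond-Blackfan anaemia in people, read 7.57, 7.33 and 7.68 in Rbpj KO, Dll1 KO and WT cells. Its log2 difference of -0.35 in Dll1 KO cells was larger than the -0.11 in Rbpj KO cells, from a single probe. Rps18 and Rps19 were both 1.27-fold lower in Dll1 KO cells.

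Rps15a read above WT in both knockouts, but its probes did not give the same picture. It averaged 5.0 in Rbpj KO cells, 4.78 in Dll1 KO cells and 4.63 in WT cells, the largest excess over WT of any member in Rbpj KO cells (0.37). That excess includes a dim probe that was not well above background in WT cells. Without it the difference in Rbpj KO cells was 0.08, and its 2 bright probes read -0.19 and -0.10 in Dll1 KO cells against WT.

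Rps6, the protein that S6 kinases phosphorylate downstream of mTOR, read 6.57 in Rbpj KO cells, 6.62 in Dll1 KO cells and 6.83 in WT cells. All 3 of its probes were below WT in both knockouts. Rpsa, which also occurs as a laminin receptor, read 6.39, 6.43 and 6.49 in Rbpj KO, Dll1 KO and WT cells. Rps14, whose reduced dosage is linked to the anaemia of a human myelodysplastic syndrome, read 10.74, 10.60 and 10.67. At gene level Rpsa and Rps14 stayed within 0.10 of WT. The 4 probes of Rpsa disagreed, however, running from -0.35 to 0.14 in Dll1 KO cells and from -0.31 to 0.16 in Rbpj KO cells against WT.

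Large subunit genes build the part that joins amino acids and holds the exit tunnel. In Dll1 KO cells against WT cells their median was -0.14 and 42 of 45 were below 0, as were 55.7% of all genes and 65% of the brightest others. None reached a difference of 25% in either direction, where 8.57% of all genes were lower and 7.8% higher by that step. In Rbpj KO cells against WT cells the large subunit median was -0.11 with 37 of 45 below 0 (82.2%), near the 77.7% of the brightest others. Of all genes 60.2% were. Between the knockouts the median was 0.03 with 29 of 45 higher in Rbpj KO cells, as were 44.9% of all genes and 31% of the brightest others. As for the small subunit, 2 of 11 other settings turned each of the last 2 medians, to as much as 0.05 and -0.39, and none turned that of Dll1 KO cells.

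Rpl18 was the lowest large subunit gene in Dll1 KO cells, with levels of 8.47 in Rbpj KO cells, 8.43 in Dll1 KO cells and 8.73 in WT cells. Rpl7a was the lowest large subunit gene in Rbpj KO cells, with 6.85 in Rbpj KO cells, 6.98 in Dll1 KO cells and 7.29 in WT cells. It was 1.35-fold lower in Rbpj KO cells than in WT cells (log2 difference -0.43) and -0.30 on the log2 scale in Dll1 KO cells. Its 4 probes ran from -0.65 to -0.31 in Rbpj KO cells and from -0.52 to -0.18 in Dll1 KO cells, so each stood below WT in both knockouts.

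Rpl35a and Rpl39 separated the knockouts in the main setting, but their direction depended on the scaling. Taken where they had a value, both stayed higher in Rbpj KO cells under the 8 other settings that do not shift a whole array by a constant. Under all 11 other settings Rps2 was the sole member to stay higher in Rbpj KO cells than in Dll1 KO cells. Rpl35a, another gene mutated in Diamond-Blackfan anaemia, read 7.67 in Rbpj KO cells, 7.41 in Dll1 KO cells and 7.58 in WT cells, and its 2 probes gave 0.25 and 0.29 between the knockouts. Rpl39, a small protein that lines the exit tunnel, read 6.21, 5.96 and 6.25 in Rbpj KO, Dll1 KO and WT cells. Its 3 probes were 0.21 to 0.32 higher in Rbpj KO cells than in Dll1 KO cells. For both genes the Dll1 KO reading was the lowest in the main setting, and every probe placed it below WT.

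At the other end, Rpl4, which also reaches into the exit tunnel, read 8.03 in Rbpj KO cells, 8.12 in Dll1 KO cells and 8.07 in WT cells. Rpl37a read 10.80, 10.68 and 10.68, so the Rbpj KO reading stood 0.13 above WT and the Dll1 KO reading 0.01 above it. Rpl5 and Rpl11, which can act on p53 through Mdm2, lay near the median of all members. Against WT, Rpl5 stood at -0.14 in Dll1 KO cells and -0.13 in Rbpj KO cells, and Rpl11 at -0.13 and -0.08. Rpl5 read 7.47 in Rbpj KO cells, 7.46 in Dll1 KO cells and 7.60 in WT cells, and Rpl11 read 9.09, 9.04 and 9.17.

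The stalk is the flexible arm of the large subunit that recruits elongation factors. Rplp0, its base, read 9.20 in Rbpj KO cells, 9.21 in Dll1 KO cells and 9.35 in WT cells, so both knockouts stood below WT. Rplp1 read 9.46, 9.27 and 9.44 in Rbpj KO, Dll1 KO and WT cells. Rplp2 read 10.28, 10.15 and 10.29. The acidic proteins Rplp1 and Rplp2 were thus lower than WT in Dll1 KO cells (-0.18 and -0.14) and within 0.02 of it in Rbpj KO cells.

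The 9 measured paralogs and relatives had medians of -0.08 in Dll1 KO cells and -0.15 in Rbpj KO cells against WT, and they held several of the largest differences. Rpl22l1 is the paralog of Rpl22, a protein that mouse T cell precursors of the alpha-beta lineage need to develop. Rpl22l1 read 7.19 in Rbpj KO cells, 6.80 in Dll1 KO cells and 6.95 in WT cells, whereas Rpl22 read 5.56, 5.55 and 5.70. The paralog was thus 0.23 above WT in Rbpj KO cells, where Rpl22 was -0.14, and the gap of 0.39 between the knockouts was 1.31-fold. Spike-in scaling turned that gap to -0.03.

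Rpl7l1, a nucleolar relative of Rpl7, read -0.27 in Rbpj KO cells, 0.02 in Dll1 KO cells and 0.19 in WT cells, and was 1.37-fold lower in Rbpj KO cells than in WT cells. Rps19bp1, which binds Rps19 and the deacetylase Sirt1 and is no subunit of the ribosome, read 3.17, 3.42 and 3.51 in Rbpj KO, Dll1 KO and WT cells, 1.27-fold lower in Rbpj KO than in WT. These 2 and Rpl7a were the 3 members lower by the 25% step in Rbpj KO cells. Rpl39l, the paralog of Rpl39 known from male germ cells, was the dimmest member that passed the background filter, at -1.59 in Rbpj KO cells, -0.94 in Dll1 KO cells and -1.30 in WT cells. It was 1.29-fold higher than WT in Dll1 KO cells and 1.22-fold lower than WT in Rbpj KO cells, from 1 dim probe.

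Rps27l, a relative of Rps27 that p53 induces, read 6.19 in Rbpj KO cells, 6.28 in Dll1 KO cells and 6.35 in WT cells. Rpl36al, a copy of Rpl36a, read 6.84, 7.01 and 7.08. Both followed the order of Rpl7l1 and Rps19bp1, lowest in Rbpj KO and highest in WT. Rpl32l read 8.89, 8.78 and 9.03 in Rbpj KO, Dll1 KO and WT cells, and the retrogenes Rpl37rt (10.18, 10.14 and 10.22) and Rps23rg1 (0.88, 0.75 and 0.79) differed from WT by less than 0.10. Probes of such copies may share signal with their parent genes. Rpl3l, known from heart and skeletal muscle, and Rpl10l, known from testis, were not well above background. The lowest signal that was well above background was 15.8 in Rbpj KO, 8.08 in Dll1 KO and 19.2 in WT cells. Rpl3l lay below it on every array, with signals of 3.57, 3.21 and 6.93. The brighter probe of Rpl10l, with 16.9, 13.1 and 4.56, exceeded that lowest signal on both knockout arrays without being well above background there. Rpl37 and Rps27rt had no probe matched here, and Rps4l is annotated as a transcribed pseudogene and was left out.

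Ribosomal protein genes were then set beside other genes of translation, taken from lists drawn up by function. Fau and Rack1 encode ribosomal proteins under other symbols. Fau read 10.67 in Rbpj KO cells, 10.58 in Dll1 KO cells and 10.71 in WT cells, and Rack1 read 9.84, 9.87 and 9.99, so both stood below WT in each knockout. The 77 mitochondrial ribosomal protein genes, whose products form the separate ribosome of the mitochondrion, had a median of -0.13 in Dll1 KO cells, close to the cytosolic -0.14. Beside 55.7% of all genes and 65% of the brightest others, 68 of the 77 mitochondrial genes were below 0 there. Their median in Rbpj KO cells was -0.26 with 74 of 77 below 0, where 60.2% of all genes and 77.7% of the brightest others were. Of the 77, 23 were lower by the 25% step, against the cytosolic 3 of 85, 18.7% of all genes and 21.1% of the brightest others. Between the knockouts they stood at -0.10 and the cytosolic genes at 0.04. The 3 mitochondrial medians were below 0 under all 11 other settings.

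Ribosome assembly factors process ribosomal RNA and place the ribosomal proteins on it. The 30 genes had a median of 0.00 in Dll1 KO cells against WT with 16 below 0, near the 55.7% of all genes. In Rbpj KO cells the median was -0.34 with 27 below 0 and 16 lower by the 25% step, beside the 60.2% and 18.7% of all genes. Between the knockouts the median was -0.33 and 29 of 30 were lower in Rbpj KO cells, as were 55.1% of all genes. The last 2 medians were below 0 under all 11 other settings, at -0.16 and -0.20 or lower, whereas that of Dll1 KO cells lay between -0.17 and 0.04. Nat10, which acetylates ribosomal RNA, read 4.33 in Rbpj KO cells, 5.25 in Dll1 KO cells and 5.02 in WT cells. Ubtf, a transcription factor of the ribosomal RNA genes, read 5.19, 5.73 and 5.30, and Pes1, a factor of large subunit maturation, read -0.13, 0.09 and -0.26. Dkc1, which converts uridine to pseudouridine in ribosomal RNA, read 0.09, 0.45 and 0.68 in Rbpj KO, Dll1 KO and WT cells.

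The 21 other TOP mRNAs, which include Fau and Rack1, had medians of -0.12 in Dll1 KO cells with 18 below 0 and -0.22 in Rbpj KO cells with 19 below 0. In that order 55.7% and 60.2% of all genes were below 0. Of the brightest others 65% and 77.7% were, with medians of -0.06 and -0.17. The extremes of the TOP list in Rbpj KO against WT were Eif3f, a subunit of initiation factor eIF3, and Vim, the intermediate filament vimentin. Eif3f read 3.91 in Rbpj KO cells, 4.18 in Dll1 KO cells and 4.50 in WT cells, and Vim read 2.86, 2.62 and 2.43. The 10 elongation and termination genes, 5 of them also among the TOP mRNAs, had medians of -0.16 in Dll1 KO cells and -0.24 in Rbpj KO cells. Eif5a read 2.92, 3.29 and 3.54 in Rbpj KO, Dll1 KO and WT cells. Eef2k, the kinase that inhibits Eef2, read -2.42, -3.78 and -3.42, dim readings that lay below those of Rpl39l on every array. Both WT medians of both lists were below 0 under all 11 other settings. The difference of these lists from the ribosomal protein genes was not tested, since each rests on the same 3 arrays.

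**Figure D4:**
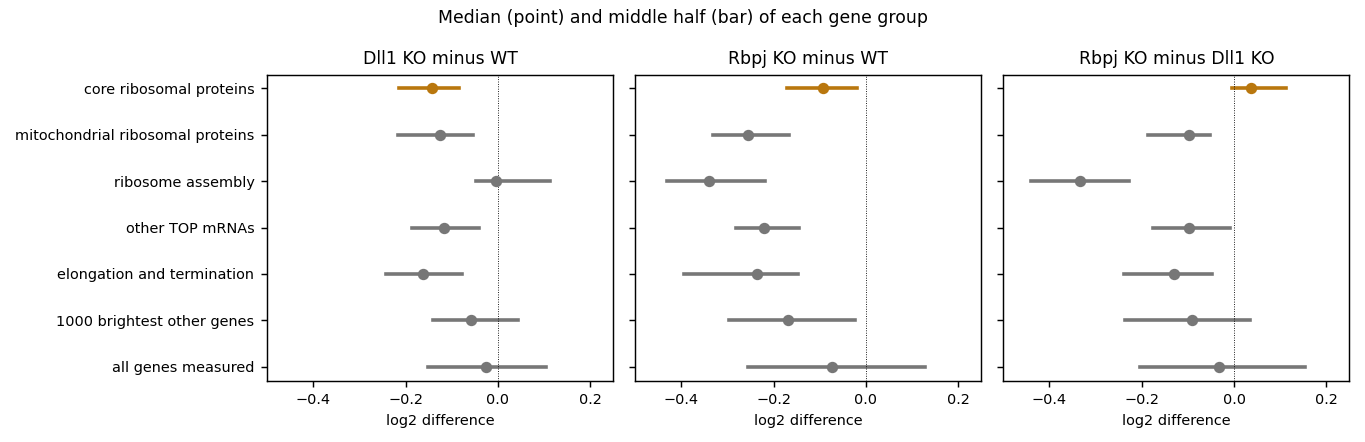
Median (point) and middle 50% of genes (bar) of the log2 difference (horizontal axis) for the 76 core ribosomal protein genes and other gene groups, 1 array a genotype. Assembly factors lie at 0.00 in Dll1 KO minus WT and at -0.34 in Rbpj KO minus WT, where core ribosomal proteins lie at -0.14 and -0.09.

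The medians moved with the scaling of the arrays. In Dll1 KO minus WT the members' median ran from -0.31 to -0.04 over 12 settings, in Rbpj KO minus WT from -0.68 to 0.06, and in Rbpj KO minus Dll1 KO from -0.38 to 0.09. Median scaling, spike-in scaling and the authors' deposited table add 1 constant to all genes of an array, so they cannot move the members relative to other genes. Over the other 9 settings the members' median relative to the brightest others ran from -0.09 to -0.07 in Dll1 KO minus WT, from -0.03 to 0.09 in Rbpj KO minus WT (below 0 in 2 of 9) and from 0.05 to 0.14 in Rbpj KO minus Dll1 KO. Taking each gene where it had a value under 8 of these (all but the one restricted to core genes), 54 of 85 members were below 0 throughout in Dll1 KO minus WT (63.5%), as were 39.1% of all genes, and Rpl39l and Rpl4 were above 0 throughout. In Rbpj KO minus WT 25 were below 0 throughout (29.4%, against 41.4% of all genes) and 14 above (16.5%, against 31.9%). Between the knockouts 9 were below 0 throughout (10.6%, against 37.7%) and 47 above (55.3%, against 36.4%). These settings share the same 3 arrays and most of their processing, so they are not independent of each other.

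**Figure D5:**
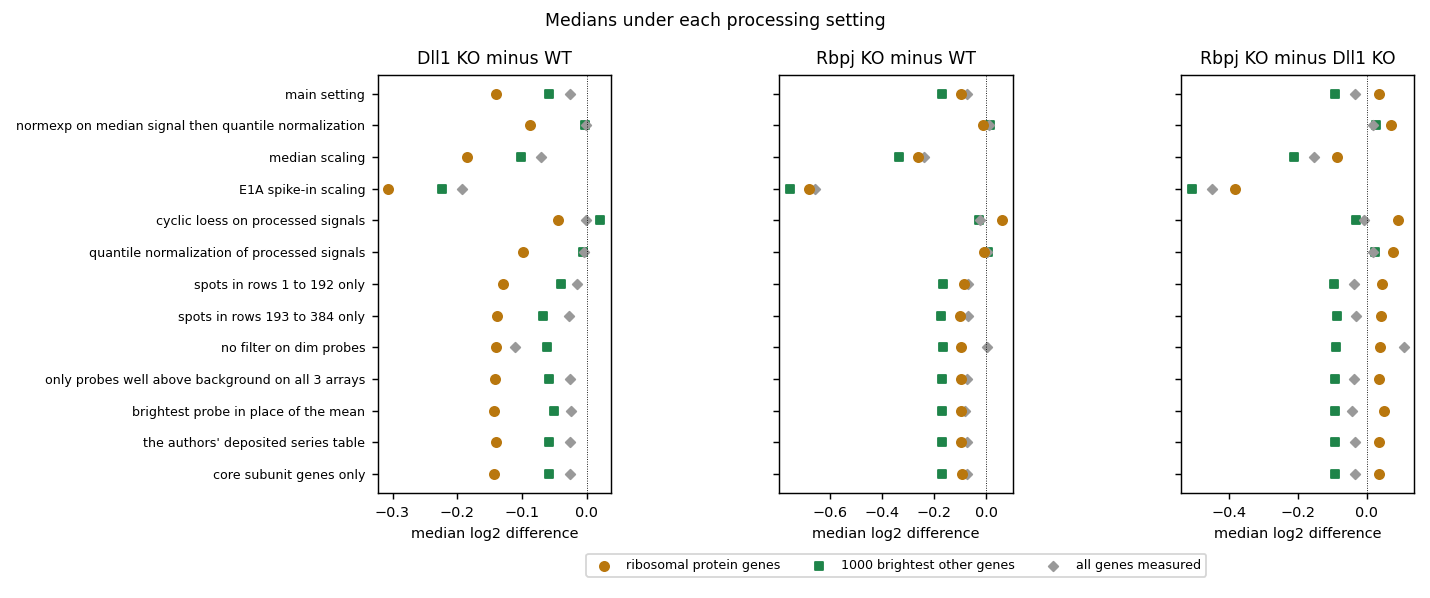
Median log2 difference (horizontal axis) of the ribosomal protein genes, the 1000 brightest other genes and all measured genes under the main setting and 12 others (rows), with a scale of its own in each panel. The ribosomal protein genes lie left of the brightest others in every row of Dll1 KO minus WT and right of them in every row of Rbpj KO minus Dll1 KO, where the rows for median scaling, spike-in scaling and the authors' table keep this distance by construction.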

How the data were processed

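The labels and file headers describe Cy3-labelled cRNA from 20 ng of RNA on 1 Agilent mouse design built on mm9, read with Feature Extraction 10.7 (per the submitters' processing notes) or 10.7.1.1 (per the file headers). The authors deposited processed signals as intensity, background-subtracted and detrended, per the file headers. A series table that the authors deposited gives log2 values. All its entries were within 0.01 of the log2 signal plus a constant per array (-7.14, -7.27 and -7.47 for Rbpj KO, Dll1 KO and WT), and its column medians were -3.28, -3.40 and -3.44. Its scale and centring were read from the values.

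Control spots and outlier-flagged spots were left out, repeated spots averaged, and log2 signals set to each array's 75th percentile. No member probe was saturated. Accessions were matched without versions to RefSeq genes (GRCm38.p6), which named 27507 of 55678 probes (49.4%). A gene's level averages those of its probes that stood well above background on 1 or more arrays, and differences were counted among genes well above background on both arrays. The members and lists were chosen with earlier results of these data known. Genes named are the 4 largest differences each way per comparison, the stalk genes, Rpsa, all paralogs, Rps6, Rpl5, Rpl11, Rps14, members beside the background filter or with opposed probes, and list extremes. Rpl22, and Rpl23 for its repeated spots, were named apart from this rule. Values of 1 member and 1 list gene by name are not reported here. Steps were tested on simulated data. R 4.3.3, limma 3.58.1 and Python 3.11.15 were used.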

Additional observations from a re-analysis of the deposited data

How the results depend on the processing

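With 1 array a group, the number of arrays limits the precision, and no replicate could be left out. No paired analysis was possible because each group has 1 array. 12 alternatives were run, and 1, naming probes by a gene name column, was not run because it needs a column the scanner files do not hold. The members' median kept its sign under all 12 in Dll1 KO minus WT and under 11 in Rbpj KO minus WT. Of 108 values of medians and counts under alternatives, 77 were classed as the same, 28 as moved and 3 as reversed. Of the values of single genes, 63 were classed as the same, 49 as moved and 2 as reversed. For counts the first class is wide. It holds, in Rbpj KO minus WT, a fall from 67 below 0 to 45 under quantile normalization of processed signals. The cause of the moves was not tested. Spike-in scaling shifted the median of all genes to -0.19 in Dll1 KO minus WT, -0.66 in Rbpj KO minus WT and -0.45 in Rbpj KO minus Dll1 KO, and median scaling shifted it to -0.07, -0.24 and -0.15.

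With spike-in scaling the members' medians were -0.31, -0.68 and -0.38 in these comparisons, with 38, 84 and 57 members lower by the 25% step and 84 below 0 between the knockouts. With median scaling the medians were -0.26 in Rbpj KO minus WT and -0.085 between the knockouts, with 65 below 0 there and with 8, 26 and 4 lower by the 25% step. With cyclic loess the members' medians were -0.045 in Dll1 KO minus WT and 0.061 in Rbpj KO minus WT. Of the members, 29 were below 0 in Rbpj KO minus WT and 13 between the knockouts. By the 25% step 1 was lower in Dll1 KO minus WT and 1 between the knockouts. With normexp and quantile normalization the median was -0.011 in Rbpj KO minus WT, with 0 lower by the 25% step there and 1 between the knockouts. With quantile normalization of processed signals it was -0.010 in Rbpj KO minus WT with 1 lower by the 25% step, and 14 were below 0 between the knockouts. Spots in the upper rows alone, which measured 54 members, gave 51, 41 and 16 below 0 in the 3 comparisons and 0 lower by the 25% step between the knockouts. Among core genes alone, 1 was lower by the 25% step in Rbpj KO minus WT and 1 between the knockouts. Among the single genes past the 25% step, those that reversed were Rps15a in Rbpj KO minus WT (-0.22, spike-in) and Rpl22l1 between the knockouts (-0.029, spike-in). Other members changed sign too. Under 11 settings, 55 of 85 members kept their sign in Dll1 KO minus WT (64.7%, against 54.7% of all genes). In Rbpj KO minus WT 25 did (29.4%, against 46.1%), and between the knockouts 10 did (11.8%, against 46.1%).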

Other observations

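The 14 regulators of ribosomal protein mRNAs had medians of -0.00 in Dll1 KO cells and -0.16 in Rbpj KO cells against WT, with 7 and 12 below 0, where 55.7% and 60.2% of all genes were. Tsc2, a brake on mTOR, read -2.92 in Rbpj KO cells, -2.39 in Dll1 KO cells and -1.88 in WT cells, the largest difference of that list. These readings were dim, below those of Rpl39l on every array. Eif4ebp2, a repressor of translation initiation, had the largest excess over WT in Rbpj KO cells, at 3.79, 3.52 and 3.60.

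The list of 8 genes of the p53 checkpoint had medians of -0.06 in Dll1 KO cells and -0.10 in Rbpj KO cells, but 4 of its genes (Rpl5, Rpl11, Rpl23 and Rps27l) are ribosomal protein genes already described. Of the other 4, Cdkn1a, the cell cycle inhibitor that p53 induces, read -2.26 in Rbpj KO cells, -0.76 in Dll1 KO cells and -1.06 in WT cells. Its Rbpj KO reading was dim, below that of Rpl39l. Mdm4, a relative of Mdm2, read 1.95, 1.75 and 1.58, Mdm2 read 4.76, 5.06 and 4.97, and Trp53, the gene of p53 itself, read -0.03, -0.10 and -0.05. The 8 measured genes of ribosome quality control had medians of 0.04 in Dll1 KO cells and 0.01 in Rbpj KO cells. Of these, 3 and 4 were below 0, as were 55.7% and 60.2% of all genes. Pelo, which rescues stalled ribosomes, read 3.33, 3.59 and 3.72, and Hbs1l, its partner, read 0.61, 0.65 and 0.38 in Rbpj KO, Dll1 KO and WT cells.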
